A study of Homo sapiens with 90 samples.

Results

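Transcripts of 10 genes that encode chaperones and quality control proteins of the endoplasmic reticulum (ER) were followed in HepG2 cells, an established line from a human liver tumour. The genes were HSPA5, HYOU1, SDF2L1, DNAJB9, PDIA4, CALR, HERPUD1, SEL1L, EDEM1 and XBP1. They were chosen by name, as targets of the transcription factors ATF6 and XBP1 or as ER chaperones, and every probe set annotated to 1 of these symbols alone was used. This gave 21 of the 40914 probe sets with a single gene symbol, and 10 of the 19774 genes on the array. SEL1L had 4 probe sets, DNAJB9 and CALR had 3 each, HSPA5, XBP1, PDIA4 and EDEM1 had 2 each, and HERPUD1, HYOU1 and SDF2L1 had 1 each. The probe set with the highest mean signal was taken to lead each gene.

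Exposure lasted 24 h and was to fenbuconazole (a triazole fungicide), imazalil (an imidazole fungicide) or 2,4-D (a chlorophenoxy herbicide), each at 9 doses about 3-fold apart, from 0.001 to 10 µM, with 3 arrays a dose. All cells, the common vehicle controls included, received 0.2% DMSO, and the 3 DMSO arrays served all 3 compounds. Expression was measured as log2 probe set intensity on Affymetrix arrays, on which a difference of 1 is a 2-fold difference in signal. Nothing in the labels says that the 3 arrays of a group came from separate cultures, so the p-values measure the spread between these arrays, which may be technical.

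The ER folds secreted and membrane proteins, which hepatocyte-like cells make in large amounts. When unfolded proteins build up there, the sensors ATF6, IRE1 and PERK start the unfolded protein response. ATF6 is cut in the Golgi to release a transcription factor, IRE1 splices the XBP1 message into one that encodes an active factor, and PERK slows translation and lets ATF4 be made. ATF6 and spliced XBP1 raise chaperone and degradation genes through short elements in their promoters. The probe sets for XBP1 read total XBP1 message, and splicing was not measured.

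The elements through which ATF6 and XBP1 are known to act can be read in the promoters of several of these genes. All 10 genes had an entry in the RefSeq promoter table (build GRCh38.p14), in 12 windows, and the 250 bases before each start site were searched on both strands. The ER stress response element (ERSE) was taken as CCAAT and CCACG with 9 bases of any kind between them, ERSE-II as ATTGG and CCACG with 1 base between them, and the unfolded protein response element (UPRE) as TGACGTGG. ERSE was present in HSPA5, XBP1 and CALR. ERSE-II was present in HERPUD1, SDF2L1 and HYOU1. UPRE was present in HYOU1, where it overlapped the farther of its 2 ERSE-II matches, because the complement of CCACG lies inside TGACGTGG. Of all 35116 windows of the same length, 0.074% held ERSE, 0.0513% held ERSE-II and 0.612% held UPRE. DNAJB9, SEL1L, PDIA4 and EDEM1 had no match to these letters in the window. The promoters of HSPA5, HERPUD1 and HYOU1 are shown because between them they carry the 3 kinds of element, in lower case with the matched letters in capitals and the start site just after the last base. Their positions are HSPA5 (chr9:125241344-125241593, minus strand), HERPUD1 (chr16:56931892-56932141, plus strand) and HYOU1 (chr11:119057206-119057455, minus strand).
HSPA5: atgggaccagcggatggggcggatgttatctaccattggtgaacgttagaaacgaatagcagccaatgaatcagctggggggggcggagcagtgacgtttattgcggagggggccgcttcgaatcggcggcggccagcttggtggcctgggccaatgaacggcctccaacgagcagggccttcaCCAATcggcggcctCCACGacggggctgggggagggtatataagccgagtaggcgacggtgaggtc
HERPUD1: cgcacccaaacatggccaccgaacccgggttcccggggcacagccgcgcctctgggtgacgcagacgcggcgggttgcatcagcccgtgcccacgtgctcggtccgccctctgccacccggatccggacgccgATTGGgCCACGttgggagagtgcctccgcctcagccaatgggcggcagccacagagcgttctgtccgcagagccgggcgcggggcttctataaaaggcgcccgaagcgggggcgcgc
HYOU1: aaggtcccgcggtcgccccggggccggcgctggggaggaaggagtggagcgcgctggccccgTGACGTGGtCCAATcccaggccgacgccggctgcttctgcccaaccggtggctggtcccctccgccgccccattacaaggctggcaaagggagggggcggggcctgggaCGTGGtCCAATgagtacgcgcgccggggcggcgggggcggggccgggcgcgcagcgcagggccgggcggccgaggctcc
The ERSE of HSPA5 lay 48 to 66 bases before the start, the ERSE-II of HERPUD1 107 to 117 bases before it, and the elements of HYOU1 at 69 to 79, 175 to 185 and 181 to 188 bases. A match is a description of the letters and not evidence of binding.

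The cells carried the markers of their label. Over the DMSO arrays, the 9 hepatocyte markers measured had mean log2 intensities between 10.07 for TTR and 13.07 for ALB. Markers of fibroblasts, blood and endothelial cells lay between 2.12 and 4.28, near the median of the arrays. CYP1A1, a cytochrome P450 induced through the AHR, rose 3.15-fold with 10 µM fenbuconazole and 8.08-fold with 10 µM imazalil in the fits used here (limma, adjusted p = 0.0015 and 2.66e-09). With 10 µM 2,4-D its log2 change was 0.04.

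The ER genes themselves moved little with any compound. At 10 µM the log2 changes of the 21 probe sets from DMSO lay between -0.20 and 0.27, and their medians were -0.01 with fenbuconazole, -0.01 with imazalil and -0.01 with 2,4-D, beside medians of 0.00 over all probe sets tested. The limma fit called 0 of 21 with each compound, while it called 0.00978%, 0.0464% and 0% of all probe sets. At an unadjusted p under 0.05 it counted 0, 1 and 0 of 21, where 4.4%, 5.44% and 4.07% of all probe sets passed. Over the 8 lower doses it called 0 of 168 contrasts for each compound, beside 0%, 0.000306% and 0.000306% of all contrasts. At an unadjusted p under 0.05 there were 1, 2 and 4 of 168, beside 3.08%, 3.69% and 4.33% of all.

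On the leading probe sets the arrays set close limits on how far these genes could have moved. Some other probe sets of the same genes set wider ones, such as the second EDEM1 probe set, with an SE of 0.23 with fenbuconazole. Over 10 genes, 9 doses and 3 compounds, the 270 log2 changes of the leading probe sets ranged from -0.27 to 0.17. All 270 of their 95% intervals lay between 0.714- and 1.28-fold, and 223 lay within 1.2-fold in either direction. These intervals are taken one at a time and rest on limma's moderated spread. Only 2 of them did not cover 0. They were SEL1L with 0.1 µM imazalil, at -0.27 ± 0.10 (SE), and DNAJB9 with 0.001 µM 2,4-D, at -0.22 ± 0.09. Limma's adjusted p was 0.807 for the first and 1 for the second. Neither stood at the top of a dose series, as the plot of changes by dose shows.

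**Figure D1:**
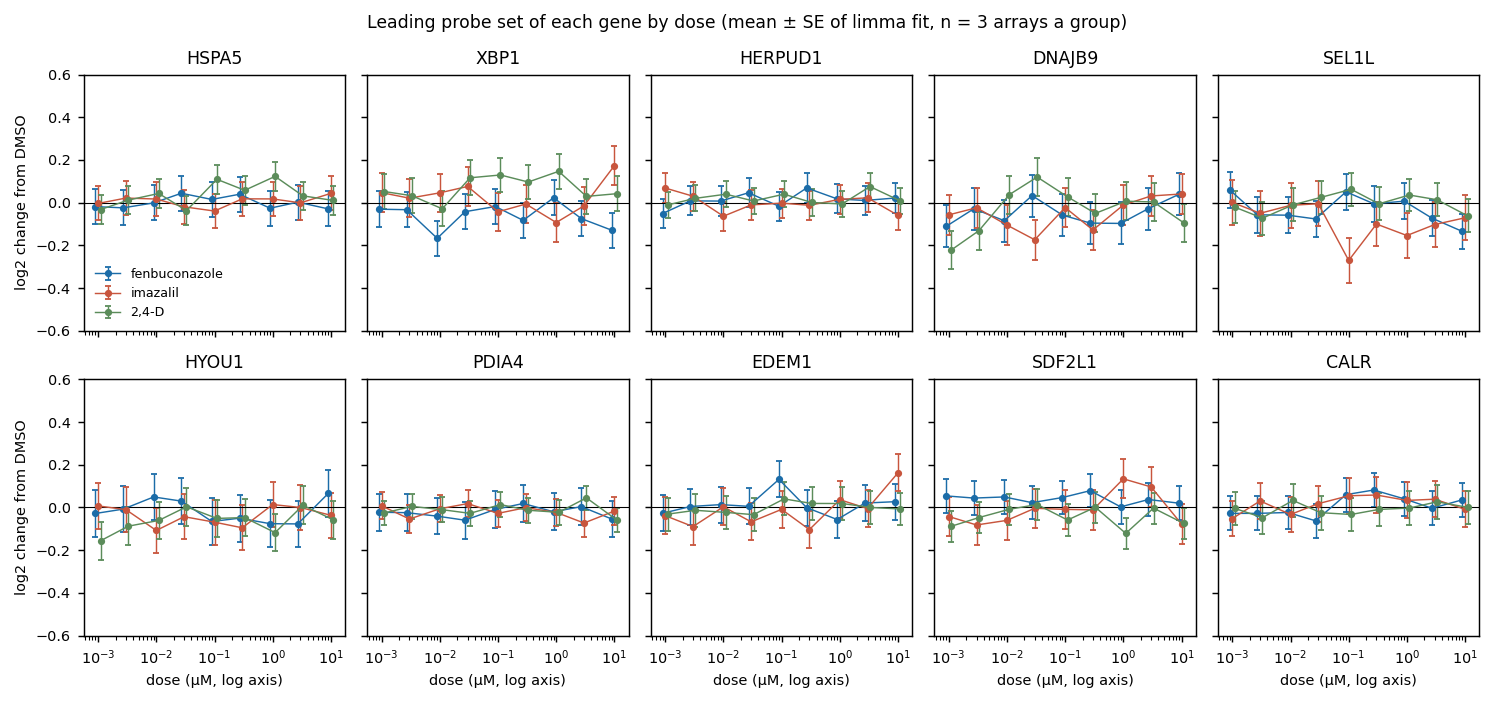
Log2 change from DMSO of the leading probe set of each gene (vertical axis) against dose in µM on a log axis (horizontal), with 1 line a compound and bars of 1 SE from limma (3 arrays a group). All values lie between -0.27 and 0.17.

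HSPA5 (BiP) is the abundant ER chaperone of the Hsp70 family and is among the best known targets of the response. Its leading probe set was at log2 11.98, 11.78 and 11.95 in the 3 DMSO arrays of the fenbuconazole set and at 11.86, 11.99 and 11.78 at 10 µM. With imazalil it was at 12.005, 11.78 and 11.98 in DMSO and 11.88, 11.99 and 12.03 at 10 µM. With 2,4-D the values were 12.05, 11.83 and 12.000 in DMSO and 11.99, 11.97 and 11.96 at 10 µM. The groups overlapped for each compound, and the log2 changes were -0.03 ± 0.08 (SE, n = 3 arrays a group), 0.04 ± 0.08 and 0.01 ± 0.07 (limma adjusted p = 0.999, 0.981 and 1). The 95% intervals ran from 0.872- to 1.1-fold, from 0.92- to 1.15-fold and from 0.916- to 1.11-fold, in the same order. The second HSPA5 probe set, at a lower signal, had log2 changes of -0.03, 0.14 and 0.18.

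HYOU1 is an Hsp110-like partner of HSPA5 that exchanges its nucleotide. It was at 8.56, 8.85 and 8.64 in DMSO and 8.53, 9.003 and 8.72 with 10 µM fenbuconazole, where replicate 2 was the highest in both groups. The log2 changes at 10 µM were 0.07 ± 0.11, -0.04 ± 0.11 and -0.06 ± 0.09 with fenbuconazole, imazalil and 2,4-D (SE, n = 3). SDF2L1, a small ER protein found in chaperone complexes, was at 8.03, 8.14 and 8.13 in DMSO and 7.98, 8.12 and 7.96 with 10 µM imazalil. Its log2 changes were 0.02 ± 0.08, -0.08 ± 0.09 and -0.08 ± 0.07. DNAJB9 (ERdj4), a J-domain cochaperone of HSPA5, was at 7.61, 7.70 and 7.59 in DMSO and 7.68, 7.73 and 7.61 with 10 µM imazalil, and its leading probe set had changes of 0.04 ± 0.10, 0.04 ± 0.09 and -0.10 ± 0.09. All of these groups overlapped with DMSO, and limma's adjusted p for them lay above 0.9.

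The probe sets of DNAJB9 spread more than those of the other chaperones. With 10 µM imazalil the other 2 probe sets had log2 changes of 0.23 and 0.27, the last being the highest of any member at 10 µM. That probe set was at 5.56, 4.99 and 5.52 in DMSO and 5.43, 5.68 and 5.79 at 10 µM, so the groups overlapped (limma adjusted p = 0.941), with a 95% interval from 0.936- to 1.55-fold. With fenbuconazole the same probe set had a change of -0.18, and with 2,4-D of -0.13. The leading probe set of the gene had 0.04 with imazalil, with an upper limit of 1.17-fold.

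PDIA4 (ERp72) is a disulfide isomerase of the ER. Its leading probe set was tight in the fenbuconazole set's DMSO arrays, at 10.78, 10.79 and 10.81, and wider at 10 µM, at 10.76, 10.63 and 10.84. The log2 changes were -0.05 ± 0.09, -0.02 ± 0.06 and -0.06 ± 0.06 (SE, n = 3). The second PDIA4 probe set went the other way with fenbuconazole, from 8.87, 9.05 and 9.03 in DMSO to 9.16, 9.12 and 9.18, with all 3 treated arrays above all DMSO arrays and a log2 change of 0.17 ± 0.09 (limma adjusted p = 0.999). With fenbuconazole the 2 probe sets of the gene thus gave no common direction. With imazalil and 2,4-D the second had log2 changes of 0.02 and -0.08, so both were negative with 2,4-D. CALR (calreticulin) is a calcium-binding lectin chaperone of glycoproteins. Its leading probe set had log2 changes of 0.04 ± 0.08, -0.01 ± 0.08 and 0.00 ± 0.08, and with 2,4-D it was at 9.85, 9.92 and 9.95 in DMSO and 9.84, 9.88 and 10.01 at 10 µM. The 3 CALR probe sets ranged from -0.09 to 0.11 over the compounds.

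The genes of ER-associated degradation gave no call either. HERPUD1 (Herp) links the ubiquitin ligase of ER-associated degradation to its substrates and had the smallest spread between replicate arrays of the 10 genes (within-group SD 0.0562). In the imazalil set it was at 9.18, 9.19 and 9.19 in DMSO and 9.08, 9.15 and 9.16 at 10 µM. The treated arrays all lay below the DMSO arrays, by a log2 change of -0.06 ± 0.07 (limma adjusted p = 0.976, interval 0.871- to 1.06-fold). With fenbuconazole and 2,4-D the changes were 0.02 ± 0.07 and 0.01 ± 0.06, with overlapping groups. EDEM1, a lectin that hands misfolded glycoproteins to degradation, was at 7.10, 6.96 and 7.07 in DMSO and 7.25, 7.10 and 7.27 with 10 µM imazalil. All 3 treated arrays lay above the DMSO arrays, by 0.16 ± 0.09 (limma adjusted p = 0.923, interval 0.99- to 1.27-fold). The other EDEM1 probe set, at a lower signal, had 0.09 in the same contrast with overlapping groups. With fenbuconazole and 2,4-D EDEM1 had log2 changes of 0.03 ± 0.08 and -0.01 ± 0.08.

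SEL1L is the adaptor that holds the HRD1 ligase complex together. Of its 4 probe sets, 3 had a negative change with every compound at 10 µM, the leading one among them. Another had -0.05, -0.17 and -0.13 with fenbuconazole, imazalil and 2,4-D, and the one that did not keep its sign had -0.15, -0.03 and 0.21. The third of those with a common sign is given in full because its changes were the lowest of the 4 with each compound, a choice made after its values were seen. It was at 7.03, 7.002 and 7.06 in DMSO and 6.83, 6.92 and 6.75 with fenbuconazole. In the imazalil set it was at 7.01, 6.98 and 7.01 in DMSO and 6.85, 6.81 and 6.81 at 10 µM. In the 2,4-D set it was at 7.16, 7.22 and 7.19 in DMSO and 7.02, 6.81 and 7.19 at 10 µM. All treated arrays lay below DMSO with fenbuconazole and imazalil and 1 array overlapped with 2,4-D. The log2 changes were -0.20 ± 0.10, -0.18 ± 0.09 and -0.18 ± 0.11 (limma unadjusted p = 0.0592, 0.0491 and 0.0982, adjusted p = 0.999, 0.917 and 1). The 3 comparisons share the same 3 DMSO arrays, whose spread on this probe set was small (SD 0.0294 in the fenbuconazole set), and so are not separate observations of it. Against the 3 lowest doses of the same compound, which do not use DMSO, the differences at 10 µM were -0.03, -0.07 and -0.16 (limma unadjusted p = 0.72, 0.319 and 0.0798). The leading SEL1L probe set had log2 changes of -0.13 ± 0.08, -0.07 ± 0.10 and -0.06 ± 0.08 at 10 µM, with overlapping groups.

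XBP1 encodes the transcription factor that IRE1 activates, and its message is itself a target of ATF6. Its leading probe set was at 11.37, 11.24 and 11.20 in DMSO and 11.19, 11.13 and 11.11 with 10 µM fenbuconazole, all 3 treated arrays below DMSO. In the imazalil set it was at 11.30, 11.11 and 11.16 in DMSO and 11.25, 11.45 and 11.39 at 10 µM, with 1 treated array inside the DMSO range. In the 2,4-D set it was at 11.33, 11.14 and 11.18 in DMSO and 11.41, 11.17 and 11.20 at 10 µM. The log2 changes were -0.13 ± 0.08, 0.17 ± 0.09 and 0.04 ± 0.08 (SE, n = 3 arrays, limma adjusted p = 0.999, 0.923 and 1). The other XBP1 probe set had a mean of 2.41, below the array median, and is given only for completeness, with -0.14, -0.10 and 0.11.

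Groups that did not overlap with DMSO were counted over all 21 probe sets. With fenbuconazole 1 of 21 probe sets lay wholly above and 2 wholly below, beside 4.72% and 4.27% of all probe sets. With imazalil these were 1 and 2 of 21, beside 5.86% and 6.29%. With 2,4-D there were 0 in either direction, beside 3.63% and 3.4%.

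**Figure D2:**
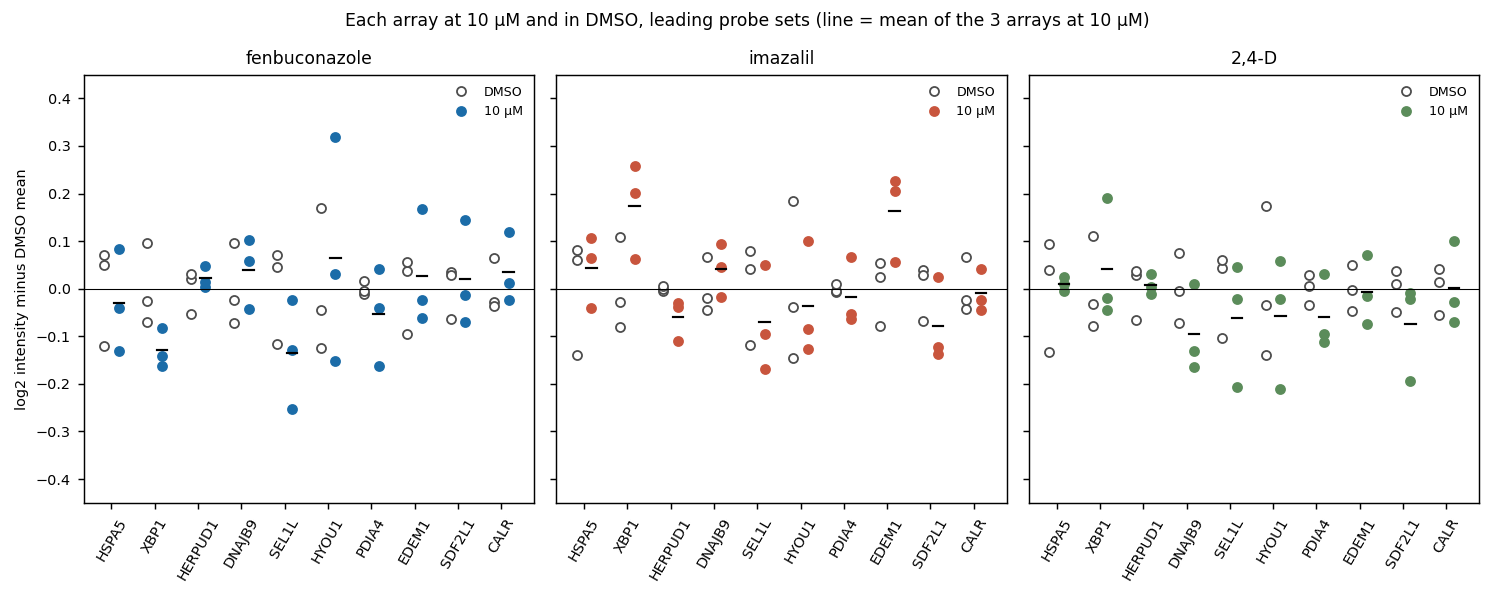
Log2 intensity of each array minus the mean of its set's DMSO arrays (vertical axis) for the leading probe set of each gene (horizontal), with 3 DMSO arrays as open circles, 3 arrays at 10 µM as filled circles and their mean as a line. Of these 10 genes, XBP1 with fenbuconazole, and HERPUD1 and EDEM1 with imazalil, do not overlap with DMSO.

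No gene of the group followed dose past the threshold. The F test over the 9 doses called 0 of 21 for each compound (limma), beside 0.00733%, 0.0244% and 0% of all probe sets. At an unadjusted p under 0.05 it counted 0, 0 and 3 of 21, beside 3.47%, 4.44% and 5.13%. The slope per 10-fold dose over the treated arrays also called 0 of 21 for each compound, beside 0.00978%, 0.0318% and 0%, with 2, 1 and 2 of 21 at an unadjusted p under 0.05, beside 6.07%, 6.44% and 4.82%. The contrast of 10 µM with the 3 lowest doses called 0 of 21 for each, beside 0.0318%, 0.122% and 0%, with 1, 1 and 0 of 21 at an unadjusted p under 0.05, beside 5.23%, 6.62% and 4.28%. EDEM1 with imazalil was the leading probe set that passed unadjusted in the last 2 of these. It stood 0.20 ± 0.07 higher at 10 µM than at the 3 lowest doses (limma adjusted p = 0.544), and its slope was 0.04 per 10-fold dose (limma adjusted p = 0.744). Over the 9 doses of the 3 compounds, the count of member probe sets above DMSO ran from 6 of 21 with 0.1 µM imazalil to 16 of 21 with 3 µM 2,4-D, beside 47.5% and 49.6% of all probe sets, the 2 ends being picked after the counts were seen. With 10 µM it was 9, 10 and 10 of 21 with fenbuconazole, imazalil and 2,4-D.

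The 3 compounds were set against each other at 10 µM, in 3 pairs, on values centred on each set's DMSO mean. Limma called 0 of 21 probe sets in each pair, beside 0.0171% of all probe sets for imazalil minus fenbuconazole, 0.12% for imazalil minus 2,4-D and 0.044% for fenbuconazole minus 2,4-D. At an unadjusted p under 0.05 there were 2, 2 and 5 of 21, beside 9.19%, 8.27% and 6.47%. The 5 of 21 lie above their share and were not tested as a set. Of these 5, only the second PDIA4 probe set was higher with fenbuconazole, by 0.25 (limma unadjusted p = 0.00343, adjusted p = 0.461). Lower were 1 SEL1L probe set (-0.36), both of XBP1 (-0.17 and -0.24) and the second of HSPA5 (-0.21). Over the 3 pairs, XBP1 had the largest difference of the leading probe sets. It was 0.30 ± 0.08 (SE, n = 3 arrays a group) higher with imazalil, the imidazole, than with fenbuconazole, the triazole, with a 95% interval of 0.13 to 0.47 (limma adjusted p = 0.335, and 0.275 when adjusted over all probe sets of the 3 pairs). The difference joins 0.17 with imazalil and -0.13 with fenbuconazole, on the same DMSO arrays. Their XBP1 mean was 11.19 in the imazalil set and 11.27 in the fenbuconazole set. All intervals between compounds take each set's DMSO mean as fixed, so they leave out any error in it. The interquartile range of the arrays, a measure of how wide an array's values spread, differed from DMSO in the same directions. Its mean changes were 0.0499 with imazalil and -0.0494 with fenbuconazole. The SD of that range over the 3 DMSO arrays was larger, at 0.0857 in the imazalil set and 0.0821 in the fenbuconazole set. With that range as a covariate, a choice made after seeing the data, the XBP1 difference was 0.22 (interval 0.08 to 0.37, limma adjusted p = 0.696), and with all arrays normalized together it was 0.19 (limma adjusted p = 0.24). The part of array spread in the difference was not tested.

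Some probe sets that do not lead their gene differed by more than XBP1, with wider intervals and no call. The DNAJB9 probe set with the lowest signal had a mean of 5.37. It was 0.45 higher with imazalil than with fenbuconazole (interval 0.06 to 0.84, limma adjusted p = 0.476). It was 0.40 higher with imazalil than with 2,4-D (interval 0.09 to 0.71, limma adjusted p = 0.474). The leading DNAJB9 probe set had 0.04 with both azoles. One SEL1L probe set was lower with fenbuconazole than with 2,4-D, by -0.36 (interval -0.60 to -0.11, limma adjusted p = 0.532), joining -0.15 and 0.21.

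Among the leading probe sets the differences of the other genes were smaller. Over the 10 leading probe sets, the 95% intervals of imazalil minus fenbuconazole ran from 0.805- to 1.39-fold, those of imazalil minus 2,4-D from 0.875- to 1.26-fold, and those of fenbuconazole minus 2,4-D from 0.796- to 1.25-fold. HSPA5 differed by 0.07 (interval -0.08 to 0.22) between imazalil and fenbuconazole. EDEM1 was 0.17 higher with imazalil than with 2,4-D (interval 0.01 to 0.33, limma adjusted p = 0.588) and 0.14 higher than with fenbuconazole (interval -0.03 to 0.30). XBP1 with fenbuconazole less 2,4-D was -0.17 (interval -0.33 to -0.01, limma adjusted p = 0.749). A p above the threshold does not show that the compounds act alike. The intervals give the differences that these arrays leave possible, with each set's DMSO mean taken as fixed.

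**Figure D3:**
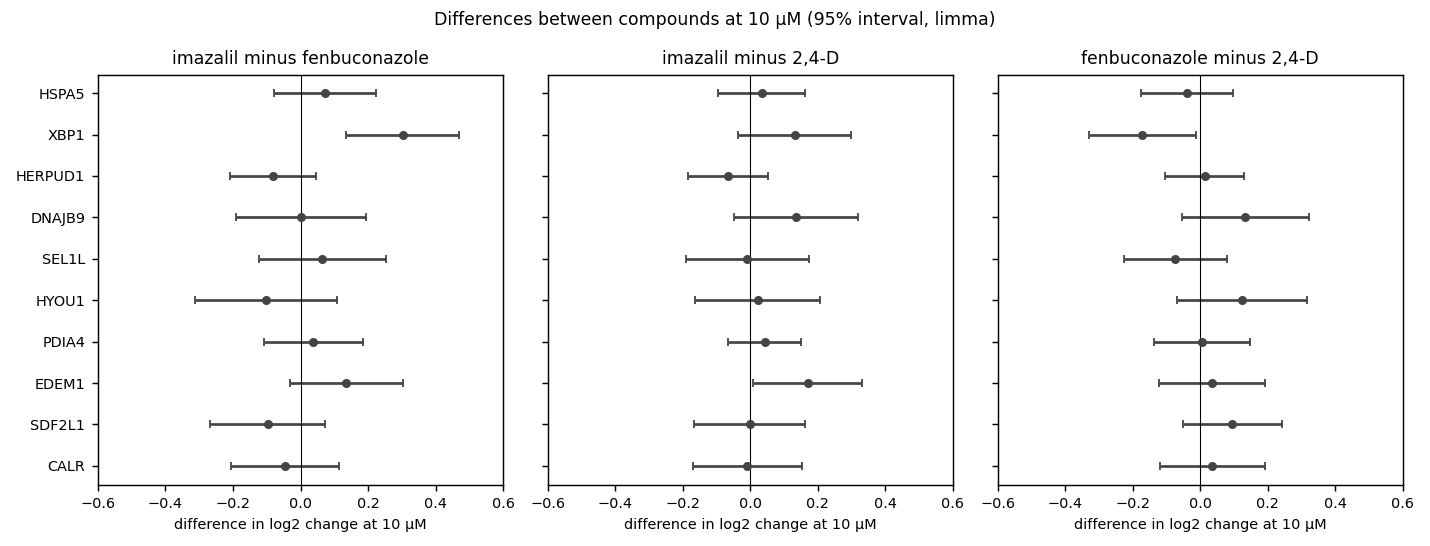
Difference between compounds in log2 change at 10 µM (horizontal axis) for the leading probe set of each gene (vertical), with 95% intervals from limma (3 arrays a group). The intervals take each set's DMSO mean as fixed. The interval of XBP1 for imazalil minus fenbuconazole, 0.13 to 0.47, lies farthest from 0.

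The rest of the pathway was read from 5 lists, each gene by its leading probe set. Limma called 0 genes in any list with any compound at 10 µM. At an unadjusted p under 0.05 it counted 3 of the 10 genes under PERK and ATF4 with fenbuconazole, all above DMSO. Each other list had 0 or 1 with fenbuconazole, beside 4.4% of all genes. With imazalil it counted 0 to 2 of a list and with 2,4-D 0, beside 5.56% and 3.73% of all genes. No list was tested as a set. Over all genes, 49.7% were above DMSO with fenbuconazole, 48.6% with imazalil and 50.3% with 2,4-D. Among the other ER folding genes, 11 of 21 were above DMSO with fenbuconazole, 4 of 21 with imazalil and 7 of 21 with 2,4-D, and the list medians were 0.00, -0.04 and -0.02 on the log2 scale. The lowest and highest genes were HSPA13 (-0.25) and SIL1 (0.11) with fenbuconazole, and QSOX1 and DNAJC10 with imazalil (-0.46 and 0.21) and with 2,4-D (-0.16 and 0.11). QSOX1, a sulfhydryl oxidase, with imazalil had the lowest of these values (limma adjusted p = 0.85). Among the other ER-associated degradation genes 8, 12 and 12 of 17 were above DMSO. Their extremes were DERL3 (-0.18) and UBE2G2 (0.20) with fenbuconazole, ERLEC1 (-0.08) and EDEM3 (0.15) with imazalil, and DERL3 (-0.15) and EDEM2 (0.11) with 2,4-D.

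Of the sensors and their processing enzymes 4, 5 and 5 of 9 were above DMSO, with medians of -0.06, 0.01 and 0.05. Their extremes were MBTPS2 (-0.12), a protease that cuts ATF6, and ATF6B (0.09) with fenbuconazole, CREB3L2 (-0.16) and CREB3L3 (0.30) with imazalil (limma adjusted p = 0.894 and 0.916), and CREB3L3 (-0.12) and MBTPS1 (0.07) with 2,4-D. Among genes of ER entry and vesicle transport 3, 13 and 8 of 17 were above DMSO, with SSR1 (-0.21) and SEC61A1 (0.13), SPCS2 (-0.06) and SEC24D (0.53), and SEC63 (-0.11) and SEC24D (0.18) at the ends. The genes under PERK and ATF4 with fenbuconazole had 8 of 10 above DMSO, their median being 0.12, beside 49.7% and 0.00 over all genes. TRIB3, a pseudokinase induced by ATF4, was highest at 0.35 ± 0.08 (SE, n = 3 arrays, limma unadjusted p = 0.000232, adjusted p = 0.381). ASNS, the asparagine synthetase, was at 0.26 (limma unadjusted p = 0.00199, adjusted p = 0.878). PPP1R15A, the phosphatase subunit that restores translation, was at 0.18 (limma unadjusted p = 0.0382, adjusted p = 0.999). ASNS and PPP1R15A with fenbuconazole were named after their values were seen. They were the other genes of the list with an unadjusted p under 0.05. ATF3 was also at 0.18 (limma unadjusted p = 0.137). DDIT3 (CHOP), which many ER stress studies read, was lowest at -0.07. With imazalil and 2,4-D 5 of 10 of this list were above DMSO, with CHAC1 lowest in both (-0.11 and -0.18), TRIB3 highest with imazalil (0.16) and PPP1R15A highest with 2,4-D (0.12). TXNDC5, TRAF2, SEC61G and KDELR2 were not analysed here.

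**Figure D4:**
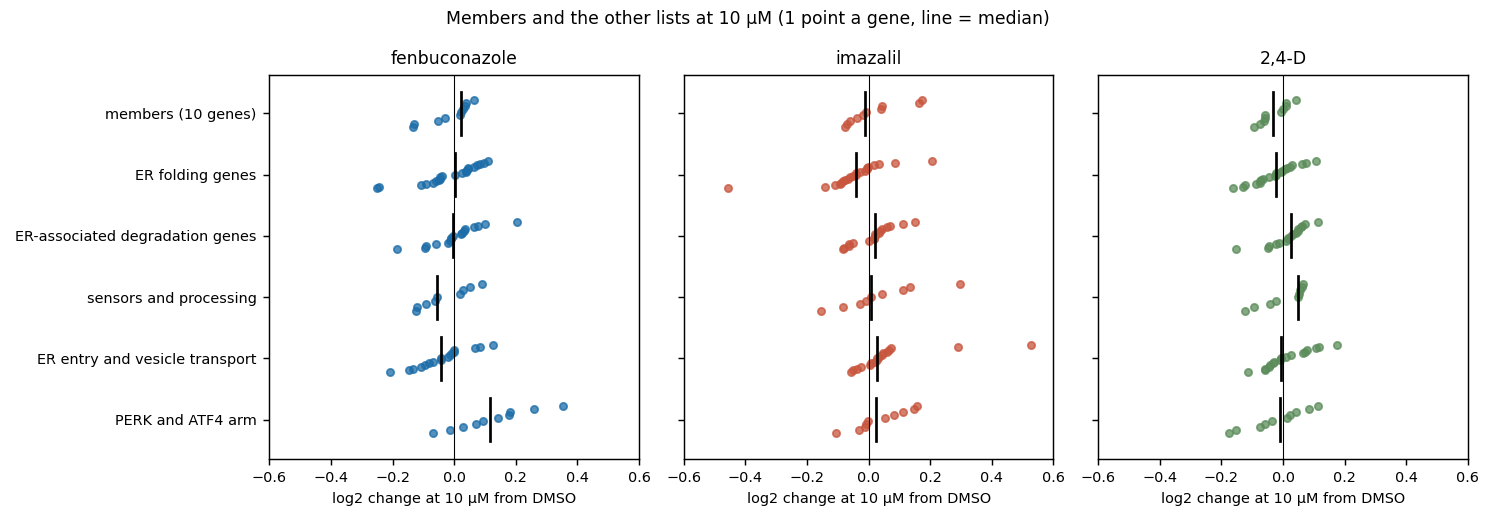
Log2 change from DMSO at 10 µM (horizontal axis) of the 10 members and of each gene of 5 further lists (rows), 1 point a gene by its leading probe set, with the list median as a line. The list median farthest from 0 is that of the PERK and ATF4 arm with fenbuconazole, at 0.12.

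The variation between replicate arrays was described next. Deviations from the group mean were taken over the 84 different arrays in 28 groups, and the 45 pairs of leading probe sets were compared. They did not vary as 1 block. The median r was 0.01, 24 of 45 pairs were positive, and 9 had an adjusted permutation p under 0.05, of which 4 were positive. The share among pairs of other genes was not computed, so these counts do not set the members apart. HSPA5 and XBP1 varied together, where Pearson's r was 0.58 (permutation p = 1e-05, adjusted p = 0.00045) and Spearman's rho 0.56 (permutation p = 1e-05, adjusted p = 0.00045). Without the 2 arrays farthest from the median r was 0.55. XBP1 and SDF2L1 varied in opposite directions, where Pearson's r was -0.56 (permutation p = 2e-05, adjusted p = 0.00045) and Spearman's rho -0.55 (permutation p = 3e-05, adjusted p = 0.00067), with r = -0.54 without the 2 farthest arrays. HYOU1 and SDF2L1 varied together, with r = 0.54 and rho = 0.53 (permutation p = 0.00014 and 9e-05, adjusted p = 0.0016 and 0.001), and r = 0.50 without the 2 farthest arrays. The permutations shuffled the 3 arrays of each group whatever their replicate number, although arrays of the same number share some deviation. For example, the interquartile range of replicate 1 lay above its group mean in 21 of 28 groups. With the mean deviation of each number taken out within each compound, a choice made after seeing the data, over the 81 treated arrays, r was 0.58 for HSPA5 and XBP1, -0.57 for XBP1 and SDF2L1 and 0.61 for HYOU1 and SDF2L1. Over the 45 pairs, 37 kept their sign.

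The members also moved with the interquartile range of the array. For XBP1 Pearson's r was 0.67 (permutation p = 1e-05, adjusted p = 3.3e-05) and Spearman's rho 0.65 (permutation p = 1e-05, adjusted p = 3.3e-05). For SDF2L1 Pearson's r was -0.73 (permutation p = 1e-05, adjusted p = 3.3e-05) and Spearman's rho -0.72 (permutation p = 1e-05, adjusted p = 3.3e-05), in the other direction. The p of 1e-05 is the smallest that the 100000 permutations can give, and adjustment was over the 10 genes. Without the 2 arrays farthest from the median spread, r was 0.62 and -0.73, and with the replicate number taken out as above it was 0.70 and -0.72. HSPA5, SEL1L and EDEM1 had positive r (0.58, 0.65 and 0.38) and HYOU1 and CALR negative r (-0.52 and -0.41), each with an adjusted permutation p under 0.05, while HERPUD1, DNAJB9 and PDIA4 did not pass. The mean of the 10 leading probe sets had r = 0.20 with the spread. The share of all genes that would pass was not computed, so these values do not set the members apart from other genes. After array spread was taken out of both genes, r was 0.32 for HSPA5 and XBP1, 0.27 for HYOU1 and SDF2L1 and -0.15 for XBP1 and SDF2L1. The part of array spread in these relations beyond these values was not tested.

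Outside the group, the 5 genes whose deviations were most like the mean of the 10 leading probe sets over the 84 arrays were RABGEF1 (r = 0.62, rho = 0.56), WIPI1 (r = 0.58, rho = 0.58), HSPA13 (r = 0.58, rho = 0.61), XRCC6 (r = 0.57, rho = 0.52) and DAP3 (r = 0.57, rho = 0.56), out of 19764 genes compared. These are descriptions of the highest of many values, with no test. HSPA13, an Hsp70-family protein of the ER, was the 1 gene of the 5 that is also on the list of ER folding genes.

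**Figure D5:**
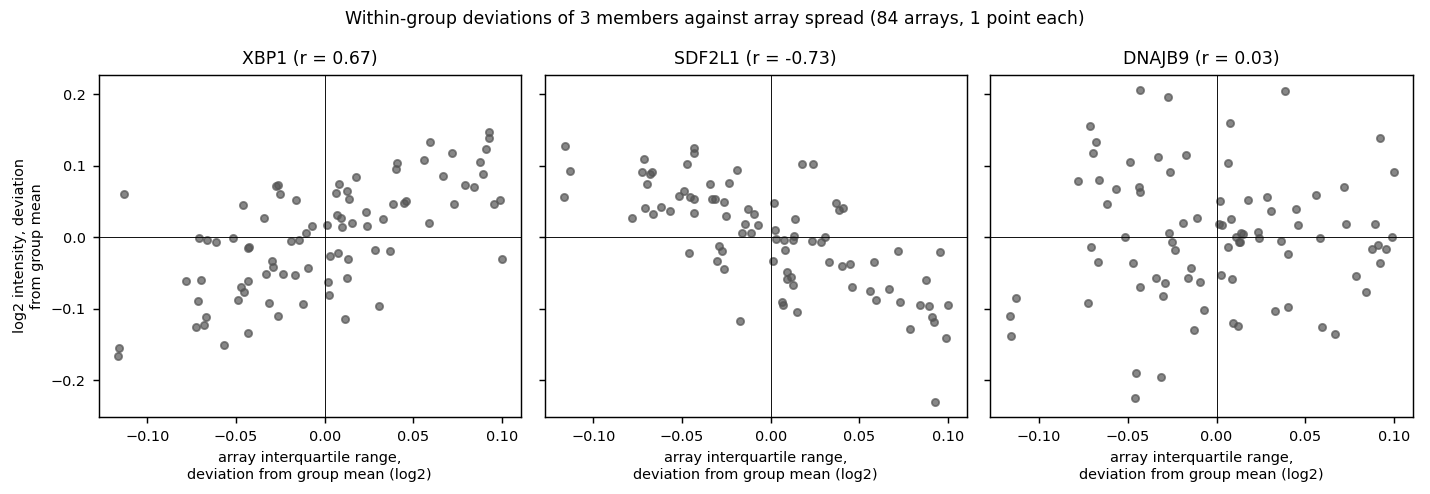
Deviation of log2 intensity from the group mean (vertical axis) against the deviation of the array's interquartile range from its group mean (horizontal), 1 point for each of 84 arrays, for XBP1, SDF2L1 and DNAJB9. XBP1 rises with the spread (r = 0.67), SDF2L1 falls (r = -0.73) and DNAJB9 shows neither (r = 0.03).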

How the data were processed

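HepG2 cells were profiled on Affymetrix HT HG-U133+ PM arrays (84 arrays, 90 columns, since the 3 DMSO arrays appear once in each compound's set of 30). The deposited values were log2 intensities that the authors had normalized by RMA within each set. The processing notes of the submitters name RMA and Partek, with no versions given in the sources used here. Arrays carry no depth, so their number limits the precision. Probe sets with 1 symbol in the platform annotation were kept (40914 of 54715), without a filter on signal. Values were compared between sets only after subtracting the set's DMSO mean.

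Fits were run with limma 3.58.1 in R 4.3.3 (lmFit and eBayes, 1 mean per group, two-sided tests, Benjamini-Hochberg adjustment over all probe sets in a contrast, threshold 0.05) and were tested on simulated data. Members were named in full. From each pathway list, genes past the threshold were to be named, and otherwise those with the lowest and highest change at 10 µM. The 5 most alike genes were named by Pearson's r. Permutation p-values were added to a description of covariation. The members and lists were chosen with earlier results of these data known. Alternatives are described in the closing section. In the 2,4-D set same-numbered DMSO and 10 µM arrays deviated together (r = 0.402, 0.304 and 0.167), each above 0.1, the level set for pairing. In the fenbuconazole set r was positive but 1 of 3 was below it (0.377, 0.2004 and 0.0774), and in the imazalil set 1 was negative (-0.133, 0.0791 and 0.142). By mean correlation with the other groups, 19, 19 and 23 of 30 arrays were closest to their own number in the fenbuconazole, imazalil and 2,4-D sets.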

Additional observations from a re-analysis of the deposited data

How the results depend on the processing

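The count of members past the threshold was 0 in each comparison and stayed at 0 in all 150 recomputed counts, each setting being run for some or all comparisons, under 1 probe set per gene, all probe sets, dim probe sets left out, a trended robust variance, the compared groups alone, the replicate block, array spread as a covariate, joint normalization of 84 arrays, and each replicate left out (limma, lowest adjusted p of a leading probe set at 10 µM against DMSO 0.569). The replicate block left the count at 0. Each group holds every replicate number once, so the block could not move a median, and the unmoved medians say nothing about pairing. At 10 µM against DMSO the settings called between 0 and 51 of all probe sets tested. The 51 were of 40914, with imazalil under joint normalization, so a count of 0 members lies near that share. The share was not computed for the alternatives of the other comparisons. The alternatives for the lower doses and the array spread covariate between compounds were chosen after seeing the data. The median log2 change of the members ranged from -0.0565 to 0.0265 with fenbuconazole, -0.0373 to 0.0472 with imazalil and -0.0471 to 0.00835 with 2,4-D when replicates were left out in turn, and was -0.0325 with 2,4-D over 1 probe set per gene. Of 510 recomputed changes of leading probe sets at 10 µM, 49 changed sign, all from main values within 0.07 of 0 and none called. Part of the 510 could not change sign. The choice of probe sets tested, the trended robust variance, the compared groups alone and the replicate block leave each estimate unchanged. With array spread as a covariate HSPA5 was 0.00448 with fenbuconazole, SDF2L1 was -0.0233 with fenbuconazole, HYOU1 was 0.00486 with imazalil, CALR was 0.0179 with imazalil, CALR was -0.00991 with 2,4-D. Under joint normalization PDIA4 was 0.00532 with fenbuconazole, HSPA5 was -0.0186 with 2,4-D, XBP1 was -0.0316 with 2,4-D, HERPUD1 was -0.000422 with 2,4-D, CALR was -0.0212 with 2,4-D. With fenbuconazole and replicates left out in turn, HSPA5 ran from -0.146 to 0.0461, HERPUD1 ran from -0.0171 to 0.0466, HYOU1 ran from -0.0607 to 0.174, EDEM1 ran from -0.0429 to 0.0999, SDF2L1 ran from -0.0422 to 0.0655, CALR ran from -0.00534 to 0.0678. With imazalil and replicates left out in turn, HSPA5 ran from -0.0373 to 0.126, SEL1L ran from -0.131 to 0.017, HYOU1 ran from -0.11 to 0.0556, PDIA4 ran from -0.0613 to 0.0122, CALR ran from -0.0342 to 0.0249. With 2,4-D and replicates left out in turn, HSPA5 ran from -0.056 to 0.0573, XBP1 ran from -0.0319 to 0.0975, HERPUD1 ran from -0.0244 to 0.0266, SEL1L ran from -0.115 to 0.011, HYOU1 ran from -0.128 to 0.0289, EDEM1 ran from -0.0686 to 0.052, CALR ran from -0.0488 to 0.0356. The XBP1 difference between imazalil and fenbuconazole stayed positive, from 0.19 to 0.39, with adjusted p from 0.186 to 0.992, and the EDEM1 difference ran from 0.04 to 0.19, the lowest without replicate 3.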

Other observations

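The same 3 DMSO arrays carry different values in the 3 sets because each set was normalized on its own. For the members the largest shift was on the second HSPA5 probe set, whose DMSO mean was 5.76 in the fenbuconazole set, 5.42 in the imazalil set and 5.71 in the 2,4-D set. That range of 0.34 is on a probe set that does not lead its gene. Among the leading probe sets the largest range was 0.22, for SDF2L1. Changes from DMSO were taken within a set, so a shift common to all columns of a set does not enter them.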
